A study of Mus musculus with 6 samples.

Results

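The ZBTB genes encode transcription factors that join a BTB domain to zinc fingers. They were read here in regulatory CD4 T cells (Treg) recovered from the spleen after a bone marrow graft. The members were all rows of the deposited table whose symbol starts with Zbtb and a digit, which were 41 of 29199 genes, on 14 chromosomes. Of these, 39 encode ZBTB factors. Zbtb8os encodes archease, a cofactor of tRNA ligation, and Zbtb11os1 is a long non-coding RNA antisense to Zbtb11, so both matched by name only. Zbtb9 was read as the sum with Gm50253, which overlaps it on the same strand.

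Lethally irradiated B6 hosts had received equal parts of B6 and semi-allogeneic B6D2F1 bone marrow, naive conventional CD4 T cells (Tconv) and Treg. The groups differed in the Tconv, which were wild-type (WT) or HP1α-deficient (HP1α KO, lacking the heterochromatin protein encoded by Cbx5), with 3 libraries each. The Treg in both groups were WT cells from B6 Foxp3-Thy1.1 mice, and had been expanded with IL-2, TGF-β and beads against CD3 and CD28 for 3 days, then kept for 5 to 7 days without beads. They were sorted again 3 weeks after the graft, by Thy1.1 and by markers of B6 origin. HP1α-deficient mice came from a floxed allele deleted with CMV-cre, which acts in all tissues, on a mixed 129/Sv and C57BL/6 background, and littermates served as WT donors. Mice were 6 to 12 weeks old and sex-matched.

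Since HP1α was deleted in the Tconv only, Cbx5 in these Treg checks no label. It was at 107.2 to 150.8 CPM (counts per 1000000) in the 6 libraries. Totals ran from 87421755 to 119078882 estimated counts per library, so that 1 CPM stood for about 100 reads. Foxp3, the factor that defines Treg, was at 154 to 252 CPM. Of 8 Treg markers, 2 were lower with HP1α KO Tconv and 0 higher at an unadjusted p-value under 0.05, against 6.98% of all genes higher and 7.51% lower. Ctla4, an inhibitory receptor of Treg, was at 1246, 1349 and 1111 CPM with WT Tconv and 1027, 1018 and 797.7 CPM with HP1α KO Tconv. Its groups were apart, at a log2 fold change of -0.38 ± 0.12 (SE), with adjusted p-values of 0.233 by edgeR and 0.0415 by DESeq2, the latter 0.0579 after dropping WT replicate 3. Ikzf4 (Eos), a partner of Foxp3, had a log2 fold change of -0.20 ± 0.07 (SE), also with groups apart, and an adjusted p-value of 0.255 by edgeR. Replicate 3 of Treg with WT Tconv stood apart in genes of other cells. Its summed red cell markers were at 6732 CPM, against 415 to 759 CPM in the other 5 libraries, and its neutrophil markers were at 1979 CPM, against 45.2 to 239 CPM. Levels below are CPM scaled by TMM, an estimate of relative library size. In bulk RNA, fewer cells of a type and less RNA per cell cannot be told apart.

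In ZBTB factors the zinc fingers read DNA, and the BTB domain pairs 2 subunits and recruits co-repressors such as NCoR or the CUL3 ubiquitin ligase. In T cells the family is known for deciding lineage: ThPOK (Zbtb7b) keeps CD4 T cells from becoming CD8 T cells, and PLZF (Zbtb16) makes innate-like NKT cells. Other members bind methylated CpG sites or telomere repeats.

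The members with the smallest edgeR p-values that also have a promoter in the sequence table used here were Zbtb21, Zbtb7b and Zbtb1, and their promoters are shown to let a reader see how unlike they are. Each is the run of 250 bases before an annotated start, from RefSeq on GRCm38.p6, 5′ to 3′ on the strand of the gene, with CpG dinucleotides in capitals. The windows are chr16:97962623-97962872 on the minus strand for Zbtb21, chr12:76370270-76370519 on the plus strand for Zbtb1, and chr3:89393379-89393628 on the minus strand for Zbtb7b, which has 2 annotated starts, of which the upstream one is shown.
Zbtb21: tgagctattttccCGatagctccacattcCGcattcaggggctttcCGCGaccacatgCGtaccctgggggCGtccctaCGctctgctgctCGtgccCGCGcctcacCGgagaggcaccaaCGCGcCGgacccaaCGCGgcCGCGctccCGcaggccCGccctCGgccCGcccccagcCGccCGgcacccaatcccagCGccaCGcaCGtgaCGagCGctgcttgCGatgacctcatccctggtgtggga
Zbtb1: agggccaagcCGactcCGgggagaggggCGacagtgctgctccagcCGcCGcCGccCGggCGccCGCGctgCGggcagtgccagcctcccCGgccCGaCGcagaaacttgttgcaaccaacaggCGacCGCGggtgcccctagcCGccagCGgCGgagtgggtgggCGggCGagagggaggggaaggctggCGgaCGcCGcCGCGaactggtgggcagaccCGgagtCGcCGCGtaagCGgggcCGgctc
Zbtb7b: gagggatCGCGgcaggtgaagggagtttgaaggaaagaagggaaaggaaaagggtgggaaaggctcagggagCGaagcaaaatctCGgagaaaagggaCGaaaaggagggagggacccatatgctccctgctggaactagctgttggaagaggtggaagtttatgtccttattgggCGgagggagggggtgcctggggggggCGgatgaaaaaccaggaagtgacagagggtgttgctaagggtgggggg
The windows of Zbtb21 and Zbtb1 held 30 and 33 CpG dinucleotides, and that of Zbtb7b held 7. The median over the 37 members with an entry was 22, and over all 27025 genes it was 6, each taken at the start with the most. The start shown for Zbtb7b may not be its start with the most. Zbtb10, Zbtb16, Zbtb40 and Zbtb48 had no entry.

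In the same windows, 4 motifs were searched on both strands. The letters CCGGAAG, a core bound by ETS factors, were found in 9 of 37 members (24.3%) and in 7.83% of all genes. These 9 were Zbtb6, Zbtb11, Zbtb33, Zbtb34, Zbtb37, Zbtb38, Zbtb41, Zbtb43 and Zbtb45. TCCTGCNA, the site of Kaiso (Zbtb33), was found in 2 members (5.41%) and 4.68% of all genes. TGACGTCA, the cAMP response element, was found in 1 member (2.70%) and 1.77% of all genes. CTCGCGAG was found in 0 members and 0.862% of all genes. None of the 3 windows printed above held a match. CCGGAAG itself holds a CpG, and the median CpG count given above was 22 over the members and 6 over all genes. The shares were not matched for CpG content, and its part in them was not tested. No motif contains another, and a match is a description of the letters only.

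Levels per length were compared as CPM per kilobase of annotated exon (CPM per kb). Zbtb7b, the CD4 lineage factor, had the highest level of the family, at 15 CPM per kb with WT Tconv and 17.8 with HP1α KO Tconv. Zbtb38, a reader of methylated DNA, followed at 10.7 over the 6 libraries, and Zbtb1, which lymphocytes need to develop, at 10.2. The libraries of these last 2 genes overlapped in level. At the other end, Zbtb16 was at 0.0189 CPM per kb and Zbtb3 at 0.505. The median over the 40 members tested was 4.46. Zbtb8b was left out of the tests by its low counts, with 2, 0 and 3 counts with WT Tconv and 1, 0 and 0 with HP1α KO Tconv.

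**Figure D1:**
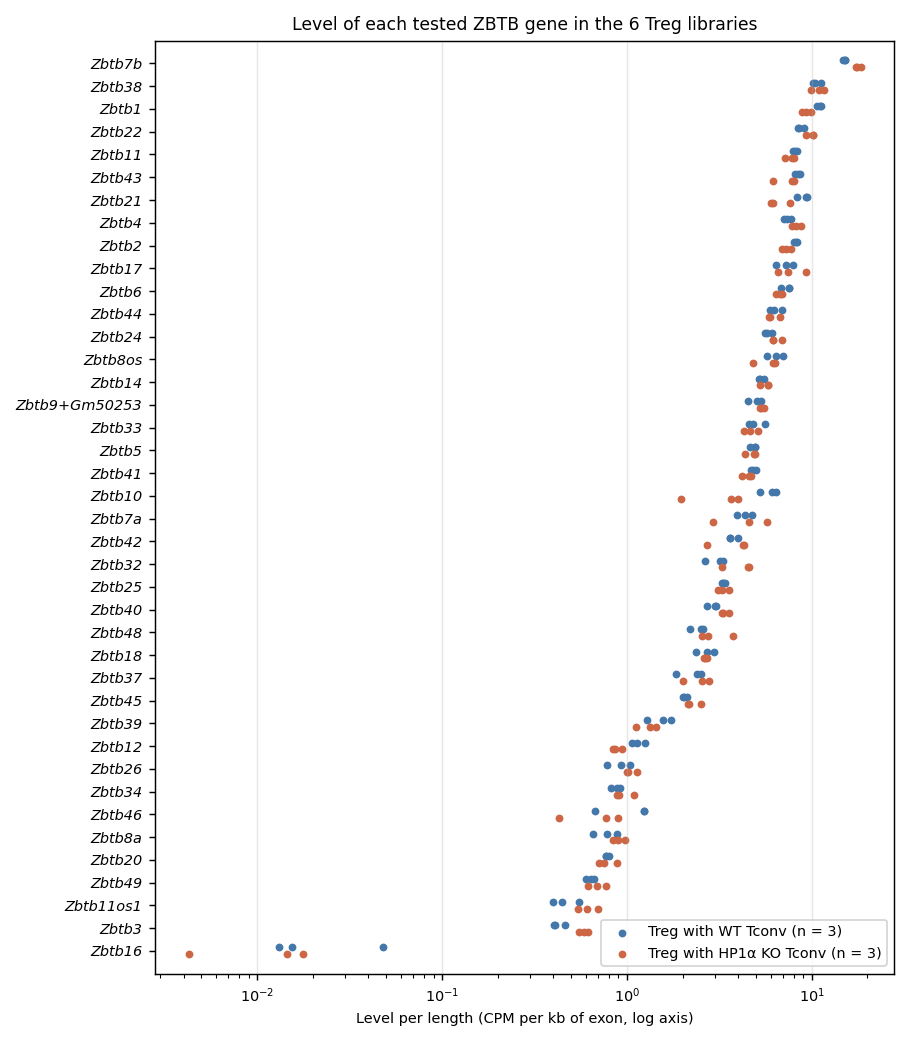
Level per length of the 40 ZBTB genes tested, in CPM per kb of annotated exon on a log axis, with 1 point per library (blue, Treg with WT Tconv; orange, Treg with HP1α KO Tconv). Zbtb7b is at the top at 15 and 17.8 CPM per kb, and Zbtb16 lies far below the rest at 0.0189.

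The family as a whole was at a similar level in the groups. The 40 members summed to 1497, 1536 and 1494 CPM with WT Tconv and to 1483, 1449 and 1490 CPM with HP1α KO Tconv, and each HP1α KO value was below all WT values. The means were 1509 ± 23.4 and 1474 ± 22.0 CPM (SD, n = 3), a gap somewhat above the spread within either group, and the sum was not tested. Replicates of a member were close. The median coefficient of variation among members was 6.26% with WT Tconv and 7.79% with HP1α KO Tconv, against 9.97% and 12.4% over all genes tested.

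The comparison asked whether the genotype of the Tconv went with a different level of ZBTB genes in the Treg. No member passed an adjusted p-value of 0.05 in the quasi-likelihood test of edgeR with Benjamini-Hochberg adjustment over 18320 genes, and neither did any other gene (0%). At an unadjusted p-value under 0.05 there were 11 of 40 members (27.5%), against 14.5% of all genes. Among these, 6 were above the WT level (15%, against 6.98% of all genes) and 5 were below it (12.5%, against 7.51%). With DESeq2, 3 of 38 members passed an adjusted p-value of 0.05 (7.89%, against 4.33% of all genes it adjusted). Zbtb7b was higher (2.63% of members, against 1.31% of genes), and Zbtb10 and Zbtb21 were lower (5.26%, against 3.03%). Limma-voom had 0 members and 0% of all genes past the adjusted threshold, and 11 members (27.5%), against 14.7% of all genes, at an unadjusted p-value under 0.05. At that unadjusted threshold there were 7 of 41 members with DESeq2 (9.23% of all genes) and 6 of 40 with the replicate number as a block (11.3%). With a library left out there were 5 to 9 of 40, against 10.3% to 16.4% of all genes. The 5 were without HP1α KO replicate 3 (10.3%), and without WT replicate 1 there were 6 (10.6%). When replicate 3 of the WT group was dropped, DESeq2 passed 0 members at an adjusted p-value of 0.05, and its share over all genes was 1.32%. The DESeq2 log2 fold change then went from -0.89 to -0.83 for Zbtb10 (adjusted p-value 0.317) and from -0.45 to -0.42 for Zbtb21 (adjusted p-value 0.0947). That of Zbtb7b was 0.226 to 0.287 over all alternatives.

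The groups did not overlap for 14 of 40 members (35.0%), against 23.0% of all genes. Zbtb3, Zbtb4, Zbtb7b, Zbtb22, Zbtb24, Zbtb40 and Zbtb45 were higher in every HP1α KO library (17.5%, against 11.5% of all genes). Zbtb1, Zbtb2, Zbtb10, Zbtb12, Zbtb21, Zbtb41 and Zbtb43 were lower (17.5%, against 11.6%). The sizes were small. The median log2 fold change was 0.01 over the members and -0.01 over all genes, and the median absolute value was 0.15 and 0.17. Among members, 21 fold changes were above 0 and 19 below. Zbtb16 was the one member with an absolute log2 fold change over 1.

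**Figure D2:**
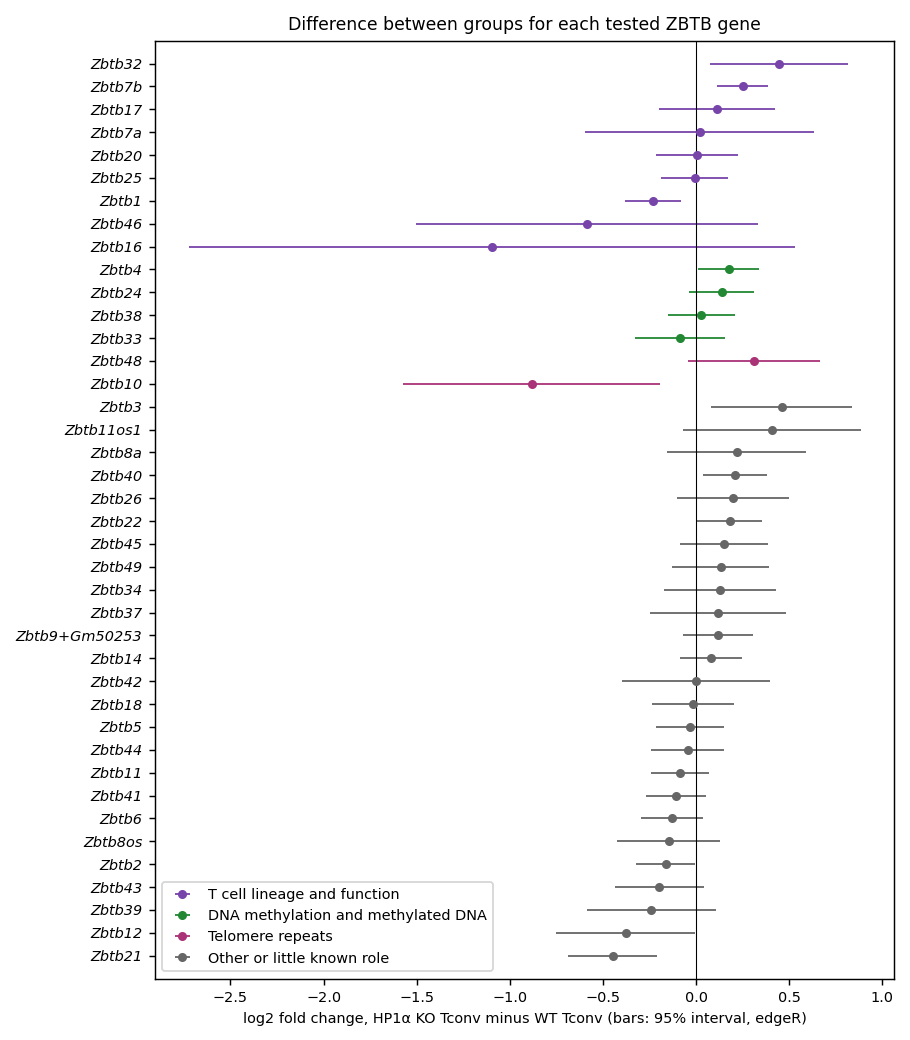
Difference between groups for the 40 ZBTB genes tested, as the log2 fold change of HP1α KO Tconv over WT Tconv with its 95% interval from edgeR, grouped by known role in colors. Points sit on both sides of 0, between -1.10 for Zbtb16 and 0.46 for Zbtb3, and the 11 intervals that leave out 0 are 6 above it and 5 below.

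Among the 9 members with known roles in T cells or other immune cells, 2 were higher and 1 lower at an unadjusted p-value under 0.05 (against 6.98% of all genes higher and 7.51% lower). None passed after adjustment in edgeR, and Zbtb7b passed in DESeq2. Their median log2 fold change was 0.01. Zbtb7b encodes ThPOK, which represses CD8 lineage genes. It was at 136, 136 and 132 CPM with WT Tconv and at 158, 157 and 166 CPM with HP1α KO Tconv. All 3 HP1α KO values were above all WT values, and the gap was several times the spread within a group. The mean was 1.19-fold higher with HP1α KO Tconv, and the log2 fold change was 0.25 ± 0.06 (SE). Its adjusted p-value was 0.210 in edgeR and 0.04995 in DESeq2. After dropping WT replicate 3, DESeq2 passed no member at an adjusted p-value of 0.05, Zbtb7b included. The antisense RNA Gm15417 covers 15.5% of the exons of Zbtb7b, at 1.70 to 2.06 CPM.

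Zbtb1 encodes a nuclear factor that T cell precursors need. Its values were 161, 154 and 159 CPM with WT Tconv and 142, 127 and 134 CPM with HP1α KO Tconv. The groups were apart, with the HP1α KO mean at 0.851 of the WT mean. On the log2 scale the difference was -0.23 ± 0.07 (SE), with a p-value of 0.00756 unadjusted, and adjusted ones of 0.221 in edgeR and 0.0930 in DESeq2. Its neighbor Zbtb25, a repressor of NFAT targets, shares 499 exonic bases with it on the other strand. Zbtb25 was at 25.9, 26.9 and 26.4 CPM with WT Tconv and 25.8, 24.6 and 28.3 CPM with HP1α KO Tconv, so that its groups overlapped.

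Zbtb32 encodes a repressor that is induced in activated lymphocytes and binds GATA3. It was at 8.19, 7.91 and 6.58 CPM with WT Tconv and at 11.4, 8.10 and 11.3 CPM with HP1α KO Tconv. Replicates 1 and 3 of the HP1α KO group were above the rest, and replicate 2 lay among the WT values. The log2 fold change was 0.44 ± 0.16 (SE), with p-values of 0.0245 unadjusted and 0.278 adjusted in edgeR. On the other strand, the lncRNA Gm71682 covers 43.2% of its exons. Gm71682 has no row in the deposited counts, so its level could not be read. Its part in the value of Zbtb32 was not tested.

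Zbtb16 encodes PLZF, the factor of NKT cells, and was close to absent. Its counts were 14, 12 and 53 with WT Tconv and 15, 4 and 12 with HP1α KO Tconv. Replicate 3 of the WT group alone held more than 15 counts. Its log2 fold change was -1.10 with a 95% interval from -2.73 to 0.53, and it was -0.25 without that replicate and -0.68 without HP1α KO replicate 2. WT replicate 3 also had the highest sum of 6 NK and NKT cell markers, at 27.99 CPM, against 12.6 to 16.4 CPM in the other libraries. Of that sum, Gzma held 14.95 CPM and Eomes 7.12 CPM. Klrb1c was at 3.39 CPM there and at 5.34 CPM in WT replicate 1, while the other markers were highest in WT replicate 3. The part of NK and NKT cells in the result was not tested.

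Zbtb46 encodes a factor best known from classical dendritic cells. It was at 20.2, 11.01 and 20.2 CPM with WT Tconv and at 12.6, 14.7 and 7.01 CPM with HP1α KO Tconv, and the groups overlapped. The log2 fold change was -0.58 ± 0.37 (SE), with an adjusted p-value of 0.530 in edgeR, and it was -0.33 without replicate 3 of the HP1α KO group. The 8 dendritic cell markers together summed to 1.54 to 3.69 CPM with WT Tconv and 1.00 to 1.64 CPM with HP1α KO Tconv, with 6 of the 8 under 1 CPM in every library. Xcr1, the receptor of cross-presenting dendritic cells, was the one of the 2 that passed the count filter with an unadjusted p-value under 0.05. It was at 1.20, 1.24 and 0.880 CPM with WT Tconv and 0.407, 0.650 and 0.679 CPM with HP1α KO Tconv, without overlap. Its log2 fold change was -0.93 ± 0.28 (SE), with an adjusted p-value of 0.230 in edgeR. The other, Itgax, was at 0.239, 0.155 and 2.40 CPM and at 0.649, 0.220 and 0.668 CPM, with overlap. Itgax was thus highest in WT replicate 3, where Xcr1 was lowest of the WT group. The groups of the 6 markers under 1 CPM also overlapped. In each library the CPM of Zbtb46 was above the summed CPM of the 8 markers, and the part of these cells in its value was not tested.

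Zbtb7a encodes LRF, which acts beside ThPOK in CD4 T cells. Its values were 38.2, 41.9 and 45.8 CPM with WT Tconv and 44.0, 28.2 and 55.4 CPM with HP1α KO Tconv. The HP1α KO libraries spread on both sides of the WT range, with replicate 2 lowest and replicate 3 highest. This gave a log2 fold change of 0.02, with a 95% interval from -0.60 to 0.63, and it was 0.24 without replicate 2 and -0.22 without replicate 3 of that group. Zbtb17 encodes Miz-1, a partner of MYC, and Zbtb20 a repressor found in plasma cells and memory T cells. Zbtb17 was at 43.9 to 53.9 CPM with WT Tconv and 44.97 to 63.3 CPM with HP1α KO Tconv. Zbtb20 was at 28.7 to 29.8 CPM and 26.2 to 33.1 CPM. Both overlapped between groups, with log2 fold changes of 0.11 and 0.01. That of Zbtb17 was 0.05 without WT replicate 1, 0.185 without WT replicate 3, -0.03 without HP1α KO replicate 2 and 0.22 without HP1α KO replicate 3. That of Zbtb20 was 0.024 without WT replicate 3, 0.077 without HP1α KO replicate 2 and -0.094 without HP1α KO replicate 3.

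**Figure D3:**
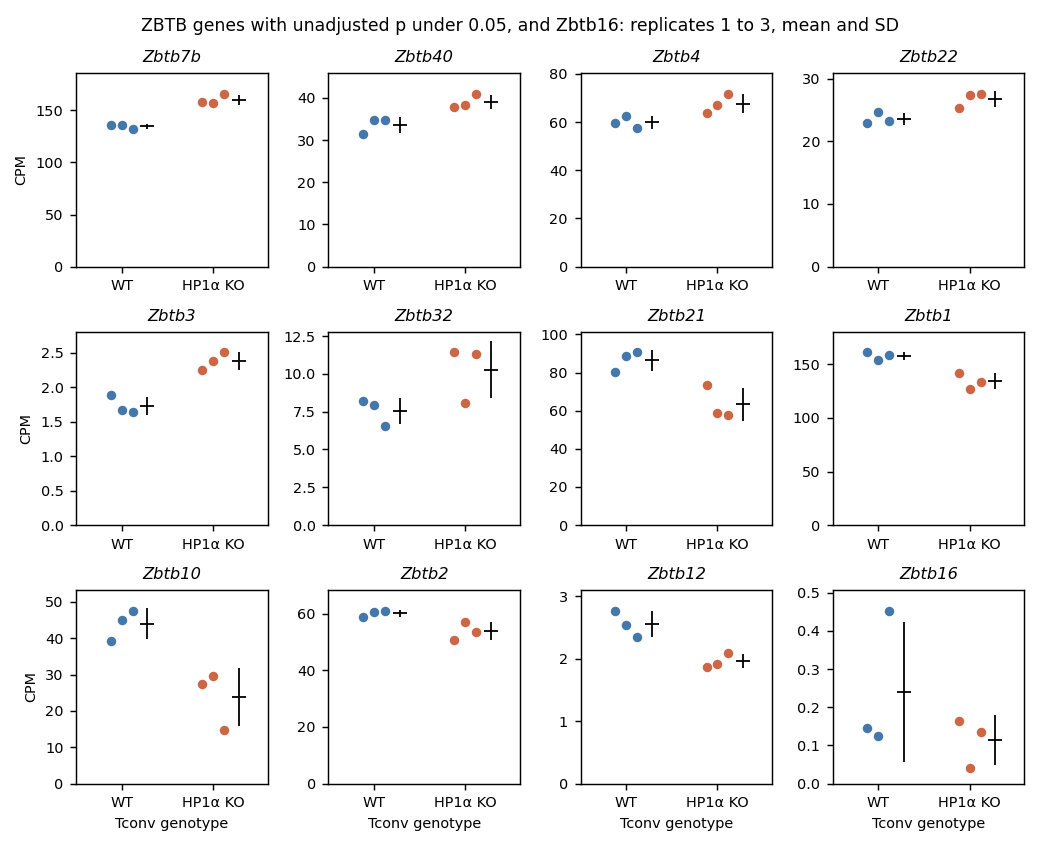
CPM of the 11 ZBTB genes with an unadjusted p-value under 0.05 and of Zbtb16, with points for replicates 1 to 3 from left to right, a dash and bar for the mean and SD (n = 3), and axes from 0. Zbtb7b, Zbtb40, Zbtb4, Zbtb22 and Zbtb3 are higher and Zbtb21, Zbtb1, Zbtb10, Zbtb2 and Zbtb12 lower in all HP1α KO libraries, while those of Zbtb32 and Zbtb16 overlap with the WT libraries.

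Of the 4 members tied to DNA methylation, 1 was higher and 0 lower at an unadjusted p-value under 0.05 (against 6.98% of all genes higher and 7.51% lower), and none passed after adjustment in edgeR. Zbtb4 encodes a reader of methylated CpG sites. It was at 59.6, 62.7 and 57.4 CPM with WT Tconv and at 63.8, 67.3 and 71.7 CPM with HP1α KO Tconv. Its groups were apart by about 1 CPM at their nearest, with a log2 fold change of 0.18 ± 0.07 (SE) and an adjusted p-value of 0.321 in edgeR. Zbtb24, whose loss leads to hypomethylated centromeric repeats in the ICF syndrome, was at 33.1, 36.2 and 34.0 CPM against 36.7, 40.6 and 36.3 CPM. Its groups touched without overlap, and the log2 fold change was 0.14 with an adjusted p-value of 0.464 in edgeR, and 0.08 without HP1α KO replicate 2. Zbtb33 (Kaiso) was at 23.6 to 29.1 CPM with WT Tconv and 22.4 to 26.6 CPM with HP1α KO Tconv. Zbtb38 was at 126 to 139 CPM and 123 to 144 CPM. Both overlapped, with log2 fold changes of -0.09 and 0.03. That of Zbtb33 was 0.02 without WT replicate 2, -0.15 without WT replicate 3, -0.02 without HP1α KO replicate 1 and -0.16 without HP1α KO replicate 2. That of Zbtb38 was 0.0019 without WT replicate 3, -0.023 without HP1α KO replicate 3 and 0.088 without HP1α KO replicate 2.

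The 2 members known to bind telomere repeats had fold changes of opposite sign. Zbtb10, which binds a telomere repeat variant, was at 39.2, 45.1 and 47.5 CPM with WT Tconv and at 27.3, 29.5 and 14.7 CPM with HP1α KO Tconv. All HP1α KO libraries were below all WT libraries, and replicate 3 was far below the other two. The mean with HP1α KO Tconv was 0.542 of that with WT Tconv. The log2 fold change was -0.88 ± 0.28 (SE), with an adjusted p-value of 0.264 in edgeR and 0.00200 in DESeq2. The DESeq2 one was 0.317 after dropping WT replicate 3. Without replicate 3 of the HP1α KO group the log2 fold change was -0.63, with an adjusted p-value of 0.436 in edgeR. Zbtb48 (TZAP), which trims long telomeres, was at 9.53 to 11.2 CPM with WT Tconv and 11.1 to 16.2 CPM with HP1α KO Tconv, with a log2 fold change of 0.31 ± 0.16 (SE). Its groups overlapped by a narrow margin, and the adjusted p-value was 0.406 in edgeR. HP1α KO replicate 2 was highest, at 16.2 CPM, and without it the log2 fold change was 0.13.

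The remaining 25 members tested, with other or less known roles, had a median log2 fold change of 0.00, with 3 higher and 3 lower at an unadjusted p-value under 0.05 (against 6.98% of all genes higher and 7.51% lower). Zbtb21, a partner of Zbtb14, had the smallest edgeR p-value of the family, and Zbtb10 the smallest by DESeq2. Zbtb21 was at 80.3, 88.8 and 90.6 CPM with WT Tconv and at 73.4, 58.9 and 58.0 CPM with HP1α KO Tconv. The groups were apart, and replicate 1 of the HP1α KO group was nearest to the WT values. The HP1α KO mean was 0.733 of the WT mean, and the log2 fold change was -0.45 ± 0.10 (SE). In edgeR the p-value was 0.00236 unadjusted and 0.210 adjusted. The adjusted one in DESeq2 was 0.0101, and 0.0947 after dropping WT replicate 3. Zbtb14 itself was at 34.1 to 36.1 CPM and 34.6 to 38.4 CPM.

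Zbtb2, a factor that binds unmethylated CpG-rich promoters, was at 58.8, 60.7 and 61.0 CPM with WT Tconv and at 50.6, 57.0 and 53.7 CPM with HP1α KO Tconv. The groups were apart, with a log2 fold change of -0.16 ± 0.07 (SE) and an adjusted p-value of 0.333 in edgeR. A near-identical copy, Gm13294, matches Zbtb2 over 1178 bases at 95.9% identity and held 53 counts in all. Zbtb12 was at 2.77, 2.54 and 2.35 CPM against 1.87, 1.92 and 2.10 CPM, with a log2 fold change of -0.38 ± 0.16 (SE). It was a low gene with groups apart, and its adjusted p-value was 0.339 in edgeR.

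On the other side, Zbtb3 had the highest log2 fold change of the members tested. It was at 1.88, 1.67 and 1.64 CPM with WT Tconv and at 2.25, 2.38 and 2.50 CPM with HP1α KO Tconv. The groups were apart, at a log2 fold change of 0.46 ± 0.16 (SE) and an adjusted p-value of 0.270 in edgeR. Zbtb40 was at 31.4, 34.8 and 34.7 CPM against 37.8, 38.2 and 40.9 CPM, also without overlap, with a log2 fold change of 0.21 ± 0.07 (SE) and an adjusted p-value of 0.268 in edgeR. Zbtb22, a gene of the MHC region, was at 22.9, 24.7 and 23.2 CPM against 25.3, 27.4 and 27.6 CPM, at a log2 fold change of 0.18 ± 0.08 (SE). Tapbp, which loads peptides on MHC class I, shares 33.9% of the exonic bases of Zbtb22 on the same strand. Tapbp was at 396 to 411 CPM and 405 to 468 CPM with a log2 fold change of 0.12, and its part in the value of Zbtb22 was not tested.

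Zbtb41 and Zbtb43 were lower and Zbtb45 higher in every HP1α KO library, with unadjusted p-values of 0.165, 0.0937 and 0.184 in edgeR. Zbtb43 was at 46.3, 49.1 and 47.9 CPM with WT Tconv and 45.6, 44.4 and 34.9 CPM with HP1α KO Tconv, where replicate 3 was lowest. Among the 40 members tested, that library was lowest of its group for 12 and highest for 16. For 2 more members an antisense partner covers much of the exons. Grhpr overlaps 73.9% of Zbtb5, and Pcnp overlaps 42.2% of Zbtb11. The log2 fold changes were -0.03 for Zbtb5 and -0.09 for Zbtb11. Pcnp was at 132.1 to 136.9 CPM with WT Tconv and 112.5 to 127.6 CPM with HP1α KO Tconv. Its groups were apart, at a log2 fold change of -0.15, and that of Grhpr was 0.004. The part of these partners in the values of Zbtb5 and Zbtb11 was not tested. The long non-coding Zbtb11os1 was at 1.07 to 1.47 CPM and 1.46 to 1.86 CPM, with a log2 fold change of 0.41 and an adjusted p-value of 0.421 in edgeR, and Zbtb8os was at 28.95 to 35.3 CPM and 24.3 to 31.7 CPM. Gm8539, with 218 counts in all, matches Zbtb8os over 404 bases at 99.3% identity.

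For Zbtb9, the deposited row and the sum over the locus gave different pictures. Its own row held 1102, 1920 and 1154 counts with WT Tconv and 0, 0 and 0 with HP1α KO Tconv. The overlapping row of Gm50253 held 1980, 1036 and 2024 counts with WT Tconv and 2891, 3334 and 2837 with HP1α KO Tconv. The row of Gm50253 was thus highest where that of Zbtb9 was empty. Both lie on the plus strand of chromosome 17 (GRCm39, Zbtb9 at 27192131 to 27227350, Gm50253 at 27192191 to 27255352). They share 2938 exonic bases, which is 74.3% of Zbtb9 and 58.6% of Gm50253. All annotated coding sequence of either, from 27192597 to 27193973, is the same single exon. The first 60 bases of that coding sequence, at chr17:27192597-27192656 on the plus strand of GRCm39, are shown because a read from them belongs to both genes, with the start codon in capitals.
Zbtb9 and Gm50253: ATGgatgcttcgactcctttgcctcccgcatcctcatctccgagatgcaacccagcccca
Of the summed counts, 35.8%, 65.0% and 36.3% had been assigned to Zbtb9 in the libraries with WT Tconv (95% Wilson intervals 34.1 to 37.5%, 63.2 to 66.7% and 34.7 to 38.0%). The share differed between WT replicates far beyond counting error. With HP1α KO Tconv it was 0 of the sum, which allows a share of up to 0.104%, 0.0900% and 0.106%. These intervals and limits cover counting error only, and estimated counts are split by a model.

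The sum of the rows was at 32.1, 30.6 and 27.1 CPM with WT Tconv and at 31.8, 33.4 and 32.1 CPM with HP1α KO Tconv. The groups overlapped, since replicate 1 of the WT group lay among the HP1α KO values. For the sum, the log2 fold change was 0.12 ± 0.08 (SE) with a 95% interval from -0.07 to 0.30, and p was 0.195 before and 0.556 after adjustment in edgeR. The log2 fold change was 0.05 without WT replicate 3 and 0.18 without WT replicate 1. Read as separate rows, the unadjusted p-values were 4.825e-05 for Zbtb9 and 0.00432 for Gm50253, with an adjusted p-value of 0.209 for each in edgeR. Ggnbp1, which shares 32.9% of the exonic bases of Gm50253, was at 0.572 to 0.968 CPM.

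**Figure D4:**
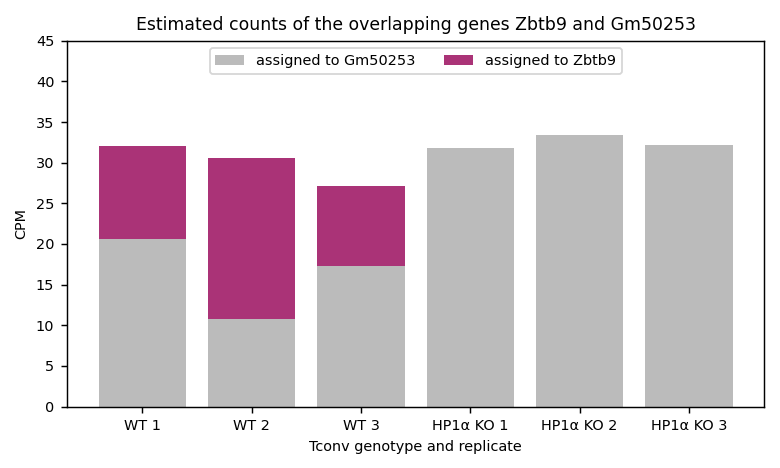
CPM of the overlapping genes Zbtb9 and Gm50253 in each library, stacked, as the deposited table assigned them. The stacks are 27.1 to 32.1 CPM with WT Tconv and 31.8 to 33.4 CPM with HP1α KO Tconv, and the part assigned to Zbtb9 is present in all WT libraries and at 0 in all HP1α KO libraries.

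BTB zinc finger genes that carry other symbols were read in the same fit. Of 8 such genes, 2 were higher and 1 lower at an unadjusted p-value under 0.05 (against 6.98% of all genes higher and 7.51% lower), none passed after adjustment in edgeR, and the median log2 fold change was 0.02. Bcl6, a transcriptional repressor that follicular helper T cells need, was at 26.7, 22.4 and 26.3 CPM with WT Tconv and at 20.9, 22.4 and 17.1 CPM with HP1α KO Tconv. The groups met at replicate 2 of each, and the log2 fold change was -0.32 ± 0.12 (SE), with an adjusted p-value of 0.287 in edgeR. Hic1, a repressor that also acts in intestinal T cells, had a log2 fold change of 0.43 (0.28 without WT replicate 1) and Gzf1 one of 0.22, with adjusted p-values of 0.316 and 0.248 in edgeR. Patz1 (MAZR), which represses Cd8 and Zbtb7b in precursors, was at 30.2 to 31.3 CPM and 31.6 to 36.2 CPM, with a log2 fold change of 0.13 (0.08 without HP1α KO replicate 3) and an adjusted p-value of 0.470 in edgeR.

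Of 16 partners of the BTB domain, 1 was lower and 0 were higher at an unadjusted p-value under 0.05 (against 6.98% of all genes higher and 7.51% lower), and the median log2 fold change was -0.06. Cul3, the scaffold of the ubiquitin ligase that uses BTB proteins as adaptors, was at 257, 262 and 252 CPM with WT Tconv and at 217, 229 and 214 CPM with HP1α KO Tconv. The groups were apart, at a log2 fold change of -0.22 ± 0.06 (SE), with a p-value of 0.00669 unadjusted, and adjusted ones of 0.219 in edgeR and 0.0865 in DESeq2. Ncor1, a co-repressor of several ZBTB factors, was at 422 to 441 CPM and 401 to 464 CPM, with a log2 fold change of 0.00 whose sign differed between settings.

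Of 9 genes that act with or against ThPOK in the choice between CD4 and CD8 lineages, 2 were lower and 0 were higher at an unadjusted p-value under 0.05 (against 6.98% of all genes higher and 7.51% lower), with a median log2 fold change of -0.16. Runx3, the factor of the CD8 lineage that ThPOK opposes, was at 39.0, 41.7 and 40.2 CPM with WT Tconv and at 34.8, 25.9 and 36.2 CPM with HP1α KO Tconv. The groups were apart and replicate 2 of the HP1α KO group was lowest, with a log2 fold change of -0.32 ± 0.12 (SE) and an adjusted p-value of 0.295 in edgeR. Without that replicate the log2 fold change was -0.18. Myb was at 37.1, 27.1 and 37.4 CPM with WT Tconv and at 25.8, 27.6 and 24.7 CPM with HP1α KO Tconv, and its groups overlapped. Myb had a log2 fold change of -0.38 ± 0.13 (SE), with an adjusted p-value of 0.252 in edgeR. Cd4, which marks the lineage of these cells, was at 728 to 816 CPM and 688 to 843 CPM, at a log2 fold change of -0.01. Of the CD8 coreceptor genes, Cd8a was at 0.104, 0.228 and 0.495 CPM with WT Tconv and at 0.121, 0.0600 and 0.328 CPM with HP1α KO Tconv. Its log2 fold change was -0.71 (95% interval -2.44 to 1.01), at 6 to 58 counts a library. Cd8b1 was at 6.24 to 7.31 CPM with WT Tconv and 5.70 to 8.44 CPM with HP1α KO Tconv, with a log2 fold change of 0.05 (95% interval -0.32 to 0.42). The groups of both genes overlapped.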

How the data were processed

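Total RNA of Treg re-sorted from spleen was sequenced as 6 libraries, and per the labels 3 were Treg with WT Tconv and 3 Treg with HP1α KO Tconv. The authors made stranded libraries, removed adapters, aligned reads to GRCm39 (Ensembl release 107) with STAR and quantified genes with Salmon. What they deposited were estimated counts of genes, as whole numbers. The strand setting of the counting is not given in the sources used here, so reads of a member and its antisense partner may not be separated. Nothing states that libraries came from separate animals, so p-values measure the spread between these libraries.

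Zbtb9 and Gm50253 were summed. Genes were tested with edgeR version 4.0.16 in R version 4.3.3 (quasi-likelihood F-test, robust, TMM, filterByExpr, 18320 genes, group as the sole term, Benjamini-Hochberg adjustment). Alternatives were DESeq2 version 1.42.0, limma-voom (limma version 3.58.1), no robust estimation, 3 other scalings, 2 other count filters, a replicate block, separate rows and leaving out each library. The DESeq2 fit without a library was added after the data had been seen. The edgeR, DESeq2 and limma-voom fits were tested on simulated data. Replicates of a group differed beyond sampling noise (lowest chi-square per degree of freedom 21.6), so each library counted as 1 replicate. Fold changes are HP1α KO over WT Tconv.

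The members and the gene lists were chosen with earlier results of these data known. Named were Zbtb9, members with an unadjusted p-value under 0.05, members with roles in T cells, DNA methylation or telomeres, extremes of level and fold change, members left out by the filter, and list genes with an unadjusted p-value under 0.05 plus Bcl6, Patz1, Ncor1 and Cul3. Zbtb5, Zbtb8os, Zbtb11, Zbtb11os1, Zbtb14, Zbtb41, Zbtb43, Zbtb45 and genes overlapping members, with Foxp3, Cd4, Cd8a and Cd8b1, were added after their values were seen. Positions and exon lengths came from a later annotation of GRCm39 (GENCODE M39), which matched all 41 members.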

Additional observations from a re-analysis of the deposited data

How the results depend on the processing

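Over all genes, 0 passed an adjusted p-value of 0.05 in edgeR, 524 with DESeq2, 178 (1.32%) with DESeq2 after dropping WT replicate 3, 1 with upper quartile scaling, 38 with no filter beyond 1 count, and 0 to 2 when a library was left out, with 2 without HP1α KO replicate 1. Members past that threshold numbered 3 with DESeq2 and 0 with every other alternative. Members with an unadjusted p-value under 0.05 numbered 11 (14.5% of all genes were under it), 7 with DESeq2 (9.23% of all genes), 6 with DESeq2 after dropping WT replicate 3 (7.93%), and 5 to 9 when a library was left out (10.3% to 16.4%), with 6 without WT replicate 1 (10.6%), 7 without WT replicate 3 (11.2%) and 5 without HP1α KO replicate 3 (10.3%). With the replicate number as a block there were 6 (11.3%). Of the 3 same-numbered pairs, not all deviated together (correlations of -0.04, 0.18 and 0.12), WT replicate 1 was closest to HP1α KO replicate 2, and the numbers were not taken as pairs. The log2 fold change of Zbtb9 with Gm50253 stayed above 0, at 0.05 to 0.18 over the alternatives and 0.12 under the block, and the count of members without overlap was 13 to 16 under other scalings or separate rows, where 22.4% to 23.9% of all genes did not overlap. With a library left out it was 16 to 21, against 30.6% to 37.3% of all genes. Genes near 0 changed sign: Zbtb7a was at -0.040 with limma-voom, -0.028 under the block and -0.216 to 0.244 with a library left out, and Zbtb20 at -0.00476, -0.000978 and -0.0936 to 0.0766. Zbtb25 was at 0.0121 with upper quartile scaling, 0.0295 with library totals and -0.0643 to 0.0367 with a library left out. With a library left out, Zbtb17 ran from -0.0339 to 0.219, Zbtb33 from -0.156 to 0.0203, and Zbtb38 from -0.0228 to 0.0881, and Zbtb38 was at -0.00265 with DESeq2 without WT replicate 3. Ncor1 was at -0.000998 with DESeq2, -6.61e-05 with limma-voom, -0.0018 with RLE scaling, -0.00171 with at least 10 counts per library, -0.0206 with DESeq2 without WT replicate 3, and -0.0462 to 0.0573 with a library left out. The causes were not tested. With 3 libraries per group the tests rest on few replicates. At low counts, as for Zbtb16, Zbtb8b, Zbtb3 and Zbtb12, counting error adds to the spread, and the part of each was not tested.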
